A study of Homo sapiens with 9 samples.

Results

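The replication-dependent histone genes encode the linker histone H1 and the core histones H2A, H2B, H3 and H4 that package newly made DNA. They were taken as the genes whose array identifier maps to a current symbol of the H1, H2AC, H2BC, H3C or H4C series, each read from its brightest probe. The reference table holds 73 such genes, and 69 had a probe on the array. Of these, 66 were tested, that is, their probe was well above background on at least 3 of the 9 arrays, among 14682 tested genes in all. The label of a clustered family was borne out for 63 of the 66, with 52 genes in the HIST1 cluster on chromosome 6, 8 in HIST2 and 2 in HIST3 on chromosome 1, and the single HIST4 gene *H4C16* on chromosome 12. The other 3 tested genes that the symbol rule takes in, *H1-7*, *H1-8* and *H1-10*, lie outside these clusters and are given apart. The 63 clustered genes comprised 5 H1, 15 H2A, 17 H2B, 12 H3 and 14 H4 genes. Among those not tested, *H1-6* and *H2BC1* did not reach 3 arrays, and *H2AC11*, *H2AC18*, *H3C14* and *H4C14* had no probe with an identifier of their own.

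Gene expression was measured in ALL-SIL, an established human T cell acute lymphoblastic leukemia (T-ALL) line, after electroporation with one of 3 reagents, a control siRNA or either of the siRNAs against *PHF6* called PHF6 siRNA1 and PHF6 siRNA2. *PHF6* encodes a zinc finger protein of the nucleus that is recurrently mutated in T-ALL. Each of the 3 groups comprised 3 independent biological replicates, numbered 1 to 3, giving 9 one-color arrays. Cells were collected 96 h after electroporation according to most labels, whereas the sample descriptions give 72 h. The control was a non-targeting siRNA and none of the 9 arrays held untreated cells. The study used a single siRNA and a pool of siRNAs against *PHF6*, and the labels do not tell which of them is siRNA1. All 3 groups come from the same line, so genotype was shared. Replicates 1 and 2 of every group were hybridized on 1 slide and replicate 3 on another, so replicate 3 and its slide cannot be told apart.

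Replication-dependent histone genes are transcribed in S phase, when NPAT, bound at the histone locus and activated by cyclin E and CDK2, drives their promoters. Their mRNAs end in a stem-loop in place of a poly(A) tail, and the stem-loop binding protein SLBP accompanies them from processing to translation. Core histone genes of a class encode mostly near-identical proteins, so 1 probe may bind transcripts of several genes, which was not checked. No order of levels between genes was read from their probes. The brightest probe of each class served only to pick a gene to describe. The labeling reaction starts from oligo(dT) primers, so that a transcript without a poly(A) tail is read only as far as it is primed, and the values are those of the labeled RNA. Values are on a variance-stabilized log2 scale and differences are on the same scale, on which 1 unit is a 2-fold change.

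Many H2A and H2B genes lie head to head and share the stretch between their starts. Of the 63 clustered genes, 58 had a promoter in the RefSeq table of GRCh38.p14, and among these 9 pairs of an H2A with an H2B gene had starts 194 to 246 bases apart on opposite strands. The stretches between starts are shown for 3 pairs, because in the first and second the partners differed most between replicates 3 and 1 and in the third they lay closest between replicates 3 and 2, as described further on. The first-named gene of each pair lies on the minus strand and the other on the plus strand. The stretches are given on the plus strand, with capitals marking the octamer (ATTTGCAT or ATGCAAAT), the CCAAT box (CCAAT or ATTGG), the TATA box (TATAAA or TTTATA) and GGTCC or GGACC.
H2BC21 and H2AC20, chr1:149886683-149886917: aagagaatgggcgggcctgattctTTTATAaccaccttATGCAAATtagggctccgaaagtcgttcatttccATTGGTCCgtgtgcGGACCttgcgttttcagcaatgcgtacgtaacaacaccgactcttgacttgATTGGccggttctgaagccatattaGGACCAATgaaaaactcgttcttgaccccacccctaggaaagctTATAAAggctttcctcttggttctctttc
H2AC25 and H2BC26, chr1:228457874-228458102: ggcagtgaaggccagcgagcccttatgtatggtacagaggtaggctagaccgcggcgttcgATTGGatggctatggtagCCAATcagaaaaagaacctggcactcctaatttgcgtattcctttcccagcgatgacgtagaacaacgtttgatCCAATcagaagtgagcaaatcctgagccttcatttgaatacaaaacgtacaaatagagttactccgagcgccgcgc
H2AC17 and H2BC17, chr6:27893186-27893424: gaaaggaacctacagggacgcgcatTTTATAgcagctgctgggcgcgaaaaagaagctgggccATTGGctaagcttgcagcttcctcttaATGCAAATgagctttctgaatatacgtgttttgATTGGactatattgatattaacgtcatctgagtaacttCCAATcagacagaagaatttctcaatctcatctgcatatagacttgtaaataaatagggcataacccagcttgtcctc

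For the genes without such a partner, the 120 bases before the start are shown for the H1 gene with the brightest probe and for the 2 H3 genes and the H4 gene called between replicates 2 and 1, each 5′ to 3′ on its own strand with the same capitals.
H1-4, plus strand, chr6:26156209-26156328: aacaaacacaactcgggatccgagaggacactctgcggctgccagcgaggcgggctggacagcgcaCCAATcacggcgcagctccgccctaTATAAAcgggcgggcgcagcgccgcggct
H3C2, minus strand, chr6:26032100-26032219: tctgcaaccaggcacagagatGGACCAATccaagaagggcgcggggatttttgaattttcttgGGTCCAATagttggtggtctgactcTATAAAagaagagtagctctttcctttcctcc
H3C8, minus strand, chr6:26271414-26271533: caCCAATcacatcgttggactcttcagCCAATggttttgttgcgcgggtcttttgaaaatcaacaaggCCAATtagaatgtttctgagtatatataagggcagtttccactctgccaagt
H4C5, plus strand, chr6:26204490-26204609: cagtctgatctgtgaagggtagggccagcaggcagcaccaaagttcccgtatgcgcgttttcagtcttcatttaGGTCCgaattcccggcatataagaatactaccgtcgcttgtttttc

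The motifs were searched on both strands in the 250 bases before the start. The octamer, the known binding element of POU2F1 in H2B promoters, was found in 13 of 17 H2B and 10 of 14 H2A promoters, against 1.63% of all 35116 promoters in the table. Windows of head-to-head partners overlap, so that 1 octamer can be counted for both genes. None of the 5 H1 or 12 H4 promoters held it, and the single H3 promoter with it was that of *H3C4*, whose start in the table is the same as that of *H2AC7*. The CCAAT box was found in all H1, H2A, H2B and H3 promoters and in 3 of 12 H4 promoters, against 32.0% of all promoters. GGTCC, which lies within the cell cycle element of H4 promoters, was found in 11 of 12 H4 promoters, against 40.7% of all promoters. It was found in 1 of 5 H1, 1 of 14 H2A, 4 of 17 H2B and 3 of 10 H3 promoters. The TATA box was found in 38 of the 58 promoters, against 10.7% of all. These letters can overlap, as in the GGTCCAAT of *H3C2*. A match describes the sequence and was not tied to binding.

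*PHF6* itself was lower with both siRNAs. Its values were 11.07, 11.17 and 10.86 in control replicates 1 to 3, 9.39, 9.69 and 9.12 with siRNA1, and 9.20, 9.28 and 9.14 with siRNA2. The groups did not overlap, and the difference of both siRNAs from control was -1.73 ± 0.14 (SE; limma, adjusted p = 0.00277). Without control replicate 2 the difference was -1.66 and the adjusted p 0.0528. All 10 T lineage markers, among them *CD3D*, *CD3E* and the T-ALL oncogene *TLX1*, were well above background on all 9 arrays. Their mean level over the list was between 11.84 and 12.27 on the control arrays, 11.69 and 12.04 with siRNA1 and 11.80 and 12.05 with siRNA2. None of the 10 was called for both siRNAs against control. With replicate number as a block 2 were called lower, beside 2.44% of all tested probes called in either direction. *CD22* of the B cell markers, *HBB* of the erythroid markers and *NCAM1* and *KLRF1* of the NK cell markers were above background on none of the arrays, whereas *CD79A*, *CD14*, *ALAS2* and *NKG7* were among those above it on all 9. The 1 NK cell marker tested was also called lower for both siRNAs with that block only, at -0.43. The 9 arrays had 29694 to 33751 probes well above background. In bulk RNA, fewer cells of a kind, such as cells in S phase, and less RNA per cell cannot be told apart.

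The first comparison asked whether the histone genes differ in ALL-SIL cells after PHF6 knockdown. None of the 63 clustered histone genes passed the threshold for both siRNAs against control (limma, Benjamini-Hochberg adjusted p under 0.05), nor for either siRNA alone or for siRNA2 against siRNA1. The background in the comparison of both siRNAs was low, with 3 of 33595 tested probes called, or 0.00893%. For siRNA1 alone 0.00893% of probes were called, for siRNA2 alone 0.0119%, and in siRNA2 against siRNA1 0%. Without adjustment, 1 of the 63 had p under 0.05 for both siRNAs, against 7.37% of all probes. With replicate number as a block, 821 probes (2.44%) were called for both siRNAs, and still none of the 63 genes, for which the lowest adjusted p was 0.113. The same fit called 0.756% of probes for siRNA1, 1.34% for siRNA2 and 0.0357% in siRNA2 against siRNA1, again with no histone gene. Among the histone genes 35 differences lay above 0 and 28 below, with a median of 0.01, and the median of all tested probes was -0.00.

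The size of difference that these data allow was limited. The 95% interval of the difference lay within 0.5 of 0 on the log2 scale for 52 of the 63 genes. In the rest it reached as far as -0.91 for *H2BC26* and 0.89 for *H2AC20*. With the replicate block the intervals were narrower, at a median of 0.21 to either side in place of 0.34. They lay within 0.5 of 0 for 62 of the 63 genes and reached at most -0.53 for *H3C1* and 0.45 for *H2AC1*. Those were the 2 genes whose blocked interval left out 0. The intervals were not adjusted for the number of genes, and the share of all tested probes whose interval left out 0 was not counted. The class medians were -0.05 for H1, 0.10 for H2A, 0.04 for H2B, -0.06 for H3 and -0.07 for H4. H2A and H2B genes were mostly above 0, 12 of 15 and 13 of 17, and H4 genes mostly below, 10 of 14, although none of them passed the test. With siRNA2 alone 10 of the 17 H2B genes lay below 0 (median -0.01), against 4 with siRNA1 (median 0.08).

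**Figure D1:**
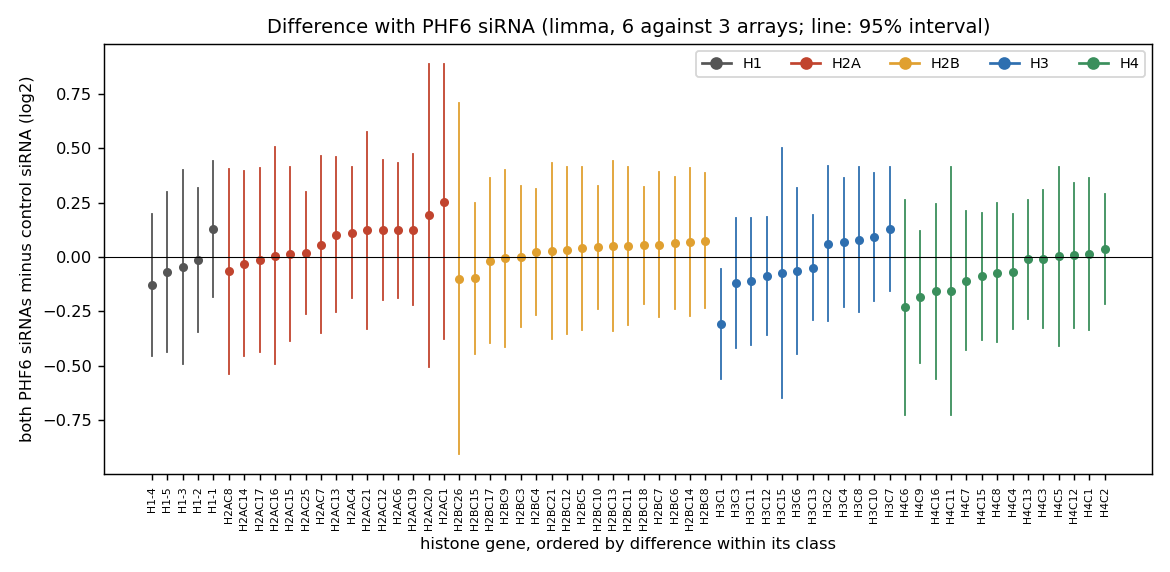
Log2 difference of both PHF6 siRNAs from control siRNA for each of the 63 clustered histone genes, ordered within class, with the 95% interval of the limma fit (6 against 3 arrays). The interval of every gene but H3C1 includes 0, and 52 of the 63 intervals lie within 0.5 of it.

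*H3C1*, a gene for the core histone H3 in HIST1, was the only clustered gene whose 6 siRNA arrays all lay below the 3 control arrays, against 2.07% of all tested probes. Its values were 14.43, 14.49 and 14.22 in control replicates 1 to 3. They were 14.10, 14.02 and 14.09 with siRNA1, and 13.94, 14.09 and 14.18 with siRNA2. The control arrays were thus highest in each replicate, but in replicate 3 the gap to siRNA2 was small. The difference was -0.31 ± 0.11 (SE; limma, adjusted p = 0.649), and with the replicate block the adjusted p was 0.113.

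The genes with the next lowest differences were H4 genes. *H4C6* had -0.23 ± 0.22 (SE; adjusted p = 0.856), and its values were 13.06, 12.81 and 12.04 in the controls, 12.52, 12.49 and 11.96 with siRNA1 and 12.62, 12.57 and 12.26 with siRNA2. Both siRNAs were below the control in replicates 1 and 2 while siRNA2 was above it in replicate 3. *H4C9* had -0.18 ± 0.14 (adjusted p = 0.81) and *H4C16* had -0.16 ± 0.18 (adjusted p = 0.883). *H4C16* was well above background on all 9 arrays and lay between 5.14 and 5.96.

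The genes with the highest differences were led by H2A genes. *H2AC1* had 0.26 ± 0.28 (SE; adjusted p = 0.88). Its values were 9.16, 8.82 and 8.09 in the controls, 9.42, 8.99 and 8.53 with siRNA1 and 9.29, 9.11 and 8.34 with siRNA2. Within each replicate number both siRNAs were above the control, but the spread between replicate numbers exceeded that gap and the groups overlapped. With the replicate block its adjusted p was 0.136. *H2AC20* followed with 0.19 ± 0.31 (adjusted p = 0.925), *H3C7* with 0.13 ± 0.13 (adjusted p = 0.861) and *H2AC19* with 0.13 ± 0.16 (adjusted p = 0.896). In the fit without the block, leaving out control replicate 3 turned the differences of *H2AC1*, *H2AC20* and *H2AC19* to -0.04, -0.22 and -0.02. Replicate 3, in which these genes were lowest, was then represented by siRNA arrays only. With the block and a whole replicate number left out, none of them changed sign.

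The brightest probe of each class was short of the threshold. For *H1-4* the difference was -0.13 ± 0.15 (SE; adjusted p = 0.881), for *H2AC12* 0.12 ± 0.15 (adjusted p = 0.887) and for *H2BC13* 0.05 ± 0.18 (adjusted p = 0.966). For *H3C2* it was 0.06 ± 0.16 (adjusted p = 0.955) and for *H4C3* -0.01 ± 0.14 (adjusted p = 0.995). *H4C3* stayed between 18.35 and 18.87 on all arrays. No spot was saturated on any array.

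Outside the clusters, *H1-10*, the gene of the replication-independent linker histone H1X, had -0.08 ± 0.15 (SE; adjusted p = 0.932). The germ cell linker histone genes *H1-7*, of the testis, and *H1-8*, of the oocyte, had -0.02 ± 0.14 (adjusted p = 0.988) and 0.19 ± 0.10 (adjusted p = 0.728). *H1-8* was well above background on 5 arrays only, and lay at 4.68, 4.55 and 4.69 in the controls, 4.82, 4.79 and 4.87 with siRNA1 and 4.81, 4.86 and 4.83 with siRNA2. Its siRNA arrays thus all lay above its controls, as for 1.84% of all tested probes.

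The siRNA arrays were also read against the control of the same replicate number, since arrays with the same number deviated together. In replicate 1, the mean of both siRNAs was below its control for 50 of the 63 genes, with a median of -0.14. In replicate 2 it was below for 25, with a median of 0.03. In replicate 3 it was above the control for 54, with a median of 0.12. Over all tested probes the 3 medians were 0.01, 0.00 and -0.00. The direction of the histone genes against control thus differed between replicate numbers, which was not tested. The H2B genes, for example, were below the control in 16 of 17 cases in replicate 1 and above it in 16 of 17 in replicate 2 and 15 of 17 in replicate 3.

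The arrays were next compared by replicate number, with treatment in the model. The histone genes varied more between replicate numbers than between the treatments of one number. The median SD over genes was 0.22 within a treatment group, as it was for all tested probes (0.22). Within a replicate number it was 0.12, against 0.17 for all tested probes. The median deviation of the 63 genes from their own means was 0.10, -0.05 and -0.05 for control, siRNA1 and siRNA2 in replicate 1, 0.14, 0.20 and 0.13 in replicate 2, and -0.23, -0.14 and -0.11 in replicate 3. The lowest array was thus control replicate 3, on which 57 of 63 genes were below their mean, and the highest was siRNA1 replicate 2, on which 4 were.

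**Figure D2:**
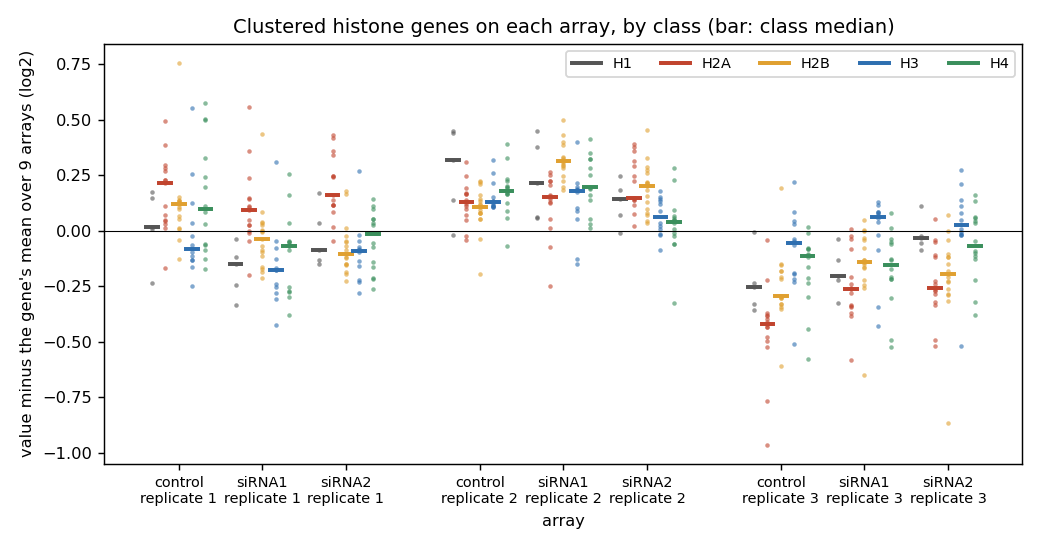
Value of each clustered histone gene minus its own mean over the 9 arrays (log2 scale), by class, with bars for class medians and arrays grouped by replicate number. Most genes lie above 0 on the 3 arrays of replicate 2 and below 0 on those of replicate 3, with the H2A genes lowest on control replicate 3.

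Replicate 2 was set against replicate 1 on the same slide. The threshold was passed by 3 histone genes as higher in replicate 2, 4.76% of the 63, and by none as lower. This share is close to the background, in which 4.19% of all tested probes were higher and 4.01% lower. By direction alone 48 genes were above 0 and the median was 0.17, against -0.01 for all tested probes. All 3 arrays of replicate 2 lay above those of replicate 1 for 23 genes (36.5%), against 10.6% of all tested probes. These were 9 H2B, 7 H3, 4 H4 and 2 H1 genes and 1 H2A gene.

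The genes called were an H4 and 2 H3 genes. *H4C5* had 0.54 ± 0.11 (SE; adjusted p = 0.0198). Its values were 15.13, 14.88 and 15.00 in control, siRNA1 and siRNA2 of replicate 1, and 15.48, 15.67 and 15.49 in replicate 2. *H3C2* had 0.42 ± 0.11 (adjusted p = 0.0461), from 16.28, 16.28 and 16.29 to 16.71, 16.85 and 16.54. *H3C8* had 0.39 ± 0.10 (adjusted p = 0.0399), from 14.74, 14.68 and 14.85 to 15.12, 15.17 and 15.14. All treatments were higher in replicate 2 for each of these genes. The linker histone gene *H1-3* had 0.47 ± 0.13 (adjusted p = 0.0607) and the H3 gene *H3C6* had 0.42 ± 0.12 (adjusted p = 0.0602). The lowest differences were those of *H2AC1*, at -0.32 ± 0.10 (adjusted p = 0.0904), *H3C15*, at -0.27 ± 0.10 (adjusted p = 0.15), and *H4C7*, at -0.21 ± 0.12 (adjusted p = 0.322). No histone gene was called without the arrays of siRNA1 or of siRNA2, and 1 without those of the control. With normexp and quantile normalization 10 were higher and 2 lower.

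Replicate 3 was lower than replicate 1 for 16 of the 63 genes (25.4%) and higher for 3 (4.76%), where 17.1% of all tested probes were lower and 12% higher. By brightest probe, the genes were unevenly spread over the classes, and further probes of some genes, given below, had other calls. Of the 15 H2A genes 10 fell, with a class median of -0.50, and 14 were below 0. Of the 17 H2B genes 3 fell (median -0.15), of the 14 H4 genes 2 fell (median -0.08), and of the 5 H1 genes none did (median -0.12). Among the 12 H3 genes 3 were higher and 1 was lower, with a median of 0.08. By location, the median was -0.12 in HIST1, -0.20 in HIST2 and -0.66 for the 2 genes of HIST3. Calls numbered 19 in all, and 10, 12 and 14 without the arrays of siRNA1, siRNA2 and control. The median of the 63 genes was -0.15, and -0.06 without the control arrays.

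The largest decrease was that of *H2BC26*, an H2B gene of HIST3, at -1.17 ± 0.16 (SE; adjusted p = 0.00164). Its values were 10.38, 10.06 and 9.81 in control, siRNA1 and siRNA2 of replicate 1, 9.68, 9.87 and 10.08 in replicate 2 and 9.02, 8.97 and 8.76 in replicate 3. All arrays of replicate 3 were below all others. The H2A gene *H2AC1* fell by 0.97 on the log2 scale ± 0.10 (adjusted p = 0.000797), and stood lowest in replicate 3, as given above. The HIST2 gene *H2AC20* fell by 0.94 on the log2 scale ± 0.12 (adjusted p = 0.00147). Its values were 14.60, 14.57 and 14.75 in replicate 1, 14.64, 14.60 and 14.71 in replicate 2 and 13.37, 13.75 and 14.00 in replicate 3. Replicates 1 and 2 overlapped, and control replicate 3 was lowest.

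Of the other H2A genes, *H2AC16* fell by 0.71, *H2AC8* by 0.63, *H2AC21* by 0.54, *H2AC14* by 0.53 and *H2AC7* by 0.50 on the log2 scale. *H2AC17* fell by 0.50, *H2AC15* by 0.47 and *H2AC13* by 0.43, with adjusted p between 0.00206 and 0.0139 for these 8 genes. *H2AC4* was the only H2A gene above 0, at 0.05. The H3 gene *H3C15* of HIST2 fell by 0.86 on the log2 scale ± 0.10 (adjusted p = 0.00107), from 14.73, 14.49 and 14.45 in replicate 1 to 13.67, 13.75 and 13.66 in replicate 3. By brightest probe it was the only H3 gene called lower, while a dimmer probe of *H3C10* was lower too, at -1.31. *H4C11* fell by 0.77 ± 0.12 (adjusted p = 0.003) and *H4C6* by 0.65 ± 0.13 (adjusted p = 0.00681). The H2B genes *H2BC11* and *H2BC9* each fell by 0.31 (adjusted p = 0.0397 and 0.0399). The 3 genes that rose were the H3 genes *H3C6*, at 0.40 ± 0.12 (adjusted p = 0.0307), *H3C3*, at 0.33 ± 0.09 (adjusted p = 0.0247), and *H3C8*, at 0.31 ± 0.10 (adjusted p = 0.0416).

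The same replicate 3 arrays were set against replicate 2. They were lower for 29 genes (46.0%) and higher for none, where 14.4% of all tested probes were lower and 10.5% higher. Altogether 61 of 63 genes were below 0, with a median of -0.33, against -0.01 for all tested probes. The 29 comprised 11 of 15 H2A, 11 of 17 H2B, 3 of 5 H1, 2 of 12 H3 and 2 of 14 H4 genes. *H2BC26* fell by 0.96 and *H2AC20* by 0.95 on the log2 scale. *H4C11* fell by 0.68, *H2AC1* by 0.65, *H2AC21* by 0.61, *H3C15* by 0.59 and *H2BC9* by 0.56. Adjusted p was between 0.00357 and 0.00784 for these 7 genes. *H1-3* fell by 0.53 (adjusted p = 0.0204), *H1-4* by 0.37 (adjusted p = 0.0341) and *H1-2* by 0.36 (adjusted p = 0.0478). *H4C6* fell by 0.54 (adjusted p = 0.0176) and *H3C2* by 0.33 (adjusted p = 0.049). The other 8 H2A genes called fell by 0.35 (*H2AC13*) to 0.54 (*H2AC16*), and the other 9 H2B genes by 0.32 (*H2BC8*) to 0.51 (*H2BC13*). Without the arrays of siRNA1, siRNA2 and control 3, 11 and 17 genes were called, and with scaling to the 75th percentile 7.

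Cell type markers also differed between replicate numbers. Of the 10 T lineage markers 3 were called higher in replicate 3 than in replicate 1, beside 12% of all tested probes, and 2 lower, beside 17.1%. *CD1A*, *CD2* and *CD1B* were higher, at 1.62 (adjusted p = 0.00159), 0.75 (adjusted p = 0.00875) and 0.78 (adjusted p = 0.00713). *CD7* and *PTCRA*, the pre-T cell receptor alpha chain gene, were lower, at -0.46 (adjusted p = 0.0229) and -0.54 (adjusted p = 0.00631). In replicate 2 against replicate 1 *CD1A* and *CD1B* were higher too, at 1.39 (adjusted p = 0.0066) and 0.80 (adjusted p = 0.0152), while *CD2* was at 0.56 (adjusted p = 0.0635) and *CD7* at -0.44 (adjusted p = 0.0605). Between replicates 3 and 2 *PTCRA* alone of the 10 was called, at -0.75 (adjusted p = 0.00399), and *CD1A*, *CD2*, *CD1B* and *CD7* lay between -0.02 and 0.23. Of the 2 erythroid markers tested, *ALAS2* alone was called higher in replicate 3 than in replicate 1, at 0.67 (adjusted p = 0.00175), beside 12% of all tested probes. Against replicate 2 both were called higher, with a median of 0.44, beside 10.5% of all tested probes, and *ALAS2* was at 0.42 (adjusted p = 0.0147). *HBB* was above background on none of the arrays. None of the B cell, monocyte or NK cell markers tested was called between replicate 3 and the others. The part of these genes in the histone values was not tested.

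**Figure D3:**
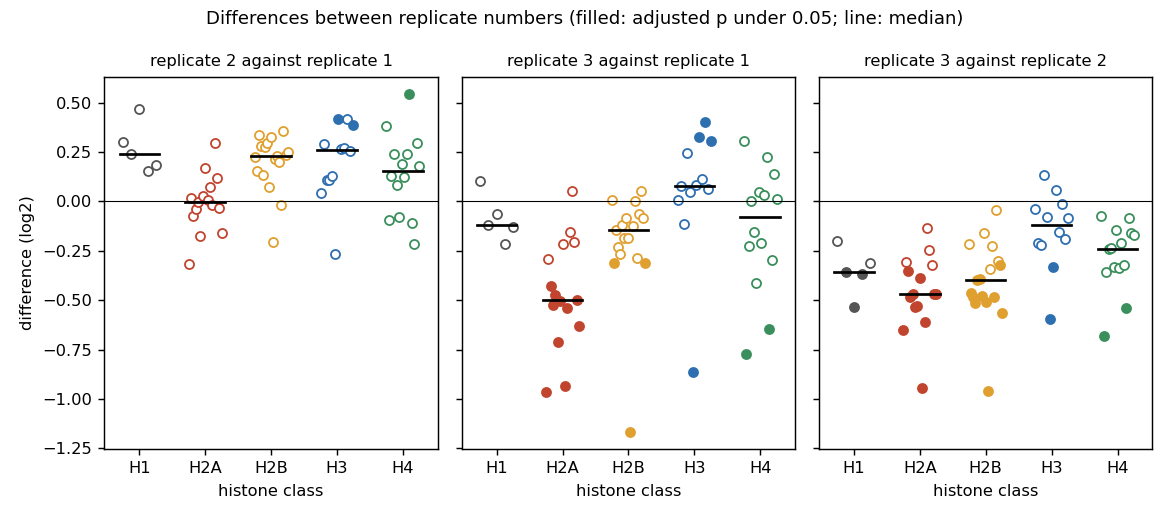
Log2 difference between replicate numbers for the 63 clustered histone genes by class, with filled points past the threshold (limma with treatment in the model, adjusted p under 0.05) and lines at class medians. Replicate 3 against 1 shows the H2A genes at a median of -0.50 and the H3 genes at 0.08, and 61 of 63 genes lie below 0 for replicate 3 against 2.

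For 22 genes (34.9%) the 3 arrays of replicate 3 lay below all 6 arrays of replicates 1 and 2, against 11.6% of all tested probes, and for none did they lie above, against 10.1%. The 22 comprised 11 H2A, 5 H2B and 5 H4 genes and the H3 gene *H3C15*. No treatment group alone carried this order for the H2A genes. Their median difference between replicates 3 and 1 was -0.64 with control siRNA, -0.41 with siRNA1 and -0.39 with siRNA2. For all 63 genes, the same medians were -0.36, -0.03 and -0.06, so that over the whole family the difference was largest among the control arrays, which was not tested. H3 genes were at -0.10 with control siRNA but at 0.27 with siRNA1 and 0.13 with siRNA2.

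Head-to-head partners did not always pass the threshold together, although in most pairs both were below 0 for replicate 3 against replicate 1. In 8 of the 9 pairs 1 partner passed the threshold as lower in replicate 3 than in replicate 1, and in none did both. The H2A gene was the lower partner in 8 of the 9. Across the stretch shown first, *H2AC20* was at -0.94 and *H2BC21* at -0.19 (adjusted p = 0.273). A dimmer probe of *H2BC21* was at 0.62 (limma, adjusted p = 0.0132). Across the second, the order was the opposite, with *H2BC26* at -1.17 and *H2AC25* at -0.15 (adjusted p = 0.364). Across the third, *H2AC17* was at -0.50 and *H2BC17* at -0.18 (adjusted p = 0.23). Against replicate 2 both partners were lower in 6 pairs, 1 partner in 2 pairs and neither in 1. There *H2AC17* was at -0.53 and *H2BC17* at -0.48. The difference between partners was not tested, and each partner was read by a probe of its own.

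Further tested probes were present for 10 of the 63 genes, and these did not all follow the brightest one. For *H2AC17* both probes were lower in replicate 3 than in replicate 1, at -0.50 and -0.54 (adjusted p = 0.0184), and for *H4C4* neither was called, at 0.03 and 0.23. For 5 genes a dimmer probe was lower in replicate 3 while the brightest was not called. *H3C10* had -1.31 (adjusted p = 0.000945) with the dimmer and 0.08 with the brightest probe, and *H4C12* had -0.95 (adjusted p = 0.00327) and -0.23. *H2AC6* had -0.82 (adjusted p = 0.00447) and -0.20, and *H4C1* had -0.80 (adjusted p = 0.0037) and 0.31. *H2BC18* had -0.47 (adjusted p = 0.0424) with a probe well above background on 4 arrays and -0.09 with the brightest. For *H2BC21*, *H2BC12* and *H4C13* the dimmer probe was higher in replicate 3, at 0.62 (adjusted p = 0.0132), 0.41 (adjusted p = 0.0176) and 0.34 (adjusted p = 0.0338), where the brightest gave -0.19, -0.15 and 0.00. For 8 of these 10 genes the call between replicates 3 and 1 thus differed between probes, and the difference between probes was not tested. Between replicates 3 and 2 both probes of *H2BC21* were lower, at -0.51 (adjusted p = 0.018) and -0.46 (adjusted p = 0.0434). There *H2AC17* and *H2BC12* were called lower with the brightest probe only. *H2AC6*, *H2BC18*, *H3C10*, *H4C1* and *H4C12* were called lower with dimmer probes only, and *H4C4* and *H4C13* with neither. Between replicates 2 and 1 a dimmer probe of *H2BC21*, *H2BC18* and *H4C13* was called higher, at 1.08, 0.88 and 0.42 (adjusted p = 0.00323, 0.0125 and 0.0357). No brightest probe of the 10 genes was called there. No dimmer probe was called for both siRNAs against control, and the highest difference, of *H2BC21*, was 0.56 (adjusted p = 0.742).

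Of 20 genes for the transcription and 3′ end processing of histone mRNA, none was called for both siRNAs, with or without the replicate block. *SLBP* had -0.11 (adjusted p = 0.898) and *NPAT* -0.11 (adjusted p = 0.92). Between replicates 3 and 1, 2 of the 20 were called lower, beside 17.1% of all tested probes. *CDK2* fell by 0.53 (adjusted p = 0.00545) and *CCNE1*, the gene of cyclin E1, by 0.46 (adjusted p = 0.0152), and *CCNE1* was also lower in replicate 2 than in replicate 1, at -0.69 (adjusted p = 0.00719). *CSTF2*, a cleavage factor, was higher in replicate 3 than in replicate 2, at 0.46 (adjusted p = 0.0105). The list's median for replicates 3 and 1 was -0.06, against 0.00 for all tested probes.

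Of 22 S phase genes, none was called for both siRNAs, with 17 below 0 and a median of -0.08. In replicate 3, 10 of the 22 were lower than in replicate 1 and none higher, beside 17.1% and 12% of all tested probes, with a list median of -0.30. *CDT1*, which licenses replication origins, fell by 0.72 (adjusted p = 0.00197), *CDC45*, of the replicative helicase, by 0.68 (adjusted p = 0.00269) and *RRM2*, of ribonucleotide reductase, by 0.62 (adjusted p = 0.00352). In contrast to the histone genes, most S phase genes were below 0 in replicate 2 against replicate 1 too, 19 of 22, with a median of -0.26 and 1 called, *GINS2*, beside 4.01% of all tested probes. In replicate 3 against replicate 2, *CDT1* alone was lower, at -0.53 (adjusted p = 0.00966), beside 14.4% of all tested probes. The part of S phase genes in the histone values was not tested.

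Histone chaperones, which carry histones to DNA, were mostly below 0 with both siRNAs, 17 of 19 tested, with a median of -0.08 and none called. In replicate 3 against 1, 3 of the 19 were called lower and 1 higher, beside 17.1% and 12% of all tested probes. The chromatin assembly factor genes *CHAF1B*, at -0.61 (adjusted p = 0.00349), and *CHAF1A*, at -0.59 (adjusted p = 0.0033), and the chaperone gene *ASF1B*, at -0.49 (adjusted p = 0.0135), were lower, and the importin gene *IPO4* was higher, at 0.55 (adjusted p = 0.00469). The replication-independent histone variants, which replace core histones at particular sites, had 8 tested genes of 10, all 8 below 0 with both siRNAs at a median of -0.10 and none called. *CENPA*, the H3 variant of centromeres, was the only 1 of the 8 called between replicates. It was higher than in replicate 1 in replicate 2, at 0.57 (adjusted p = 0.0283), beside 4.19% of all tested probes. In replicate 3 it was higher by 0.66 (adjusted p = 0.00649), beside 12% of all tested probes.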

How the data were processed

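Total RNA of ALL-SIL cells was hybridized on one-color Agilent arrays. The authors extracted spot intensity with Agilent Feature Extraction (10.5.1.1 in the file headers, 9.1 in the labels) and deposited scanner files and a table of variance-stabilized log2 values. The median intensity of each spot was used here without background subtraction, variance-stabilized by a re-implementation of the VSN transformation (quantile 0.9, 7 iterations), and spots of a probe were averaged after outlier spots were left out. A probe was tested where the scanner flagged it well above background on 3 or more arrays (33595 of 57176). The number of arrays limits the precision.

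Groups followed the labels. Treatments were compared with limma 3.58.1 in R 4.3.3 over all 9 arrays, and replicate numbers with treatment in the model. These comparisons share arrays. P-values were adjusted by Benjamini-Hochberg over all tested probes at 0.05. The methods were tested on simulated data in which arrays of the same replicate number shared no deviation. The differences put in were larger than any that the histone genes had with the siRNAs. That test therefore does not cover smaller differences or a shared deviation. Arrays with the same replicate number deviated together (correlations 0.30 to 0.72 over 9 pairs, against -0.55 to 0.13 over 18 pairs of different number), so a fit with replicate number as a block was the alternative. Others changed the normalization, the filter, the probe rule, the slide term and the arrays used.

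The genes named were the brightest of each class, the 4 with the highest and the 4 with the lowest difference for both siRNAs and the 3 at either end for replicates 2 and 1 among genes above background on all 9 arrays, those past the threshold, those outside the clusters and up to 4 called genes of each list. *SLBP*, *NPAT*, *GINS2*, *H2AC4*, the markers, the partners of a pair and the further probes were named after their values were seen. The genes and lists were chosen with earlier results of these data known. Promoter sequences are RefSeq's (GRCh38.p14). Probe symbols came from the accession of the design through the RefSeq table. Protein sequences were not analysed here, and some genes are not reported here.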

Additional observations from a re-analysis of the deposited data

Results flagged for a closer look

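For 2 genes every siRNA1 array lay on one side of the control with the same replicate number and every siRNA2 array on the other. *H2AC25* differed by 0.30 on the log2 scale between siRNA2 and siRNA1, with -0.13 for siRNA1 and 0.17 for siRNA2 against control, and 1 array of each siRNA lay close to its control. *H4C13* differed by 0.30, with -0.16 for siRNA1 and 0.14 for siRNA2. The difference was not tested in the comparison that singled these genes out. In limma's comparison of siRNA2 with siRNA1 over all probes the adjusted p was 1.00 for both genes. With replicate number as a block, the interval of this difference left out 0 for 3 of the 63 clustered genes. These were *H2AC13*, *H2AC25* and *H4C13*. The lowest adjusted p among the 63 in that limma fit was 0.399, so none was called. The intervals were not adjusted for the number of genes. The share of all tested probes with such an interval, or with the same order of arrays, was not counted.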

How the results depend on the processing

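None of the 63 histone genes passed the threshold for both siRNAs, either siRNA or siRNA2 against siRNA1 under any alternative run, replicate block included. Their median difference was between -0.10 and 0.08 for both siRNAs, -0.11 and 0.11 for siRNA1, -0.13 and 0.07 for siRNA2 and -0.07 and 0.08 between the siRNAs. The number of arrays limits these comparisons. Single differences that changed sign were all short of the threshold. They were *H2BC13* (-0.054) and *H3C2* (-0.029) for VSN fitted to processed signal and *H4C3* (0.062) for normexp and quantile normalization. The next values, with 1 array left out, come from the fit without the block, in which the replicate numbers are then uneven between groups. Leaving out 1 array gave *H2BC13* -0.10 to 0.14, *H3C2* -0.027 to 0.21, *H4C3* -0.13 to 0.072, *H4C16* -0.27 to 0.042, *H1-7* -0.13 to 0.10, *H2AC12* -0.035 to 0.22, *H2AC1* -0.043 to 0.49, *H2AC20* -0.22 to 0.41 and *H2AC19* -0.017 to 0.20, the last 4 with a negative value only without control replicate 3. With the replicate block, *H4C3* was at 0.030, *H4C16* at 0.018 and *H1-7* at 0.036 without replicate 1, *H2BC13* at -0.014 without replicate 2, and *H3C2* at -0.00804 and *H1-7* at 0.035 without replicate 3.

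With replicate number as a block, which pairs the arrays, 821 probes were called for both siRNAs in place of 3, 254 in place of 3 for siRNA1, 451 in place of 4 for siRNA2 and 12 in place of 0 between the siRNAs. The block changed no call among the histone genes. With slide as a block these counts were 17, 11, 9 and 6. With the 75th percentile they were 5, 6 and 2 for the first 3 comparisons. Normexp and quantile normalization gave 5 for both siRNAs, and VSN fitted to processed signal gave 0 for siRNA1 and 1 for siRNA2. For siRNA1, a filter on all 9 arrays gave 6, the mean over probes 1 and the compared groups alone 0, and between the siRNAs the filter gave 4. With the block and without replicates 1, 2 and 3 the count for both siRNAs was 32, 5 and 582, and for siRNA1 it was 22 and 97 without replicates 1 and 3. Leaving out arrays or replicate numbers gave 0 to 582 probes for both siRNAs, 0 to 97 for siRNA1, 0 to 244 for siRNA2 and 0 to 21 between the siRNAs. The adjusted p of *PHF6* missed the threshold under 1 of 23 alternatives for both siRNAs, 8 of 24 for siRNA1 and 6 of 24 for siRNA2, always with a negative difference.

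Between replicates 2 and 1, the 3 histone genes called became 1 for VSN fitted to processed signal, for the 75th percentile and without the treatment term, 12 with normexp and quantile normalization, 5 with the deposited table and with the filter on all 9 arrays, 9 with a trended robust prior and 0 without a filter. Leaving out a treatment gave 0 to 1. Probes called numbered 2752, and 1444 for VSN fitted to processed signal, 1785 with the 75th percentile, 1122 without a filter, 1343 without the treatment term and 306 to 1620 without a treatment. Between replicates 3 and 1, the 19 histone genes became 10 with the 75th percentile and 10 to 14 without a treatment, and their median of -0.15 became -0.077 with the 75th percentile, -0.036 with normexp and quantile normalization and -0.20 to -0.062 without a treatment. Probes called numbered 9784, and 6081 without a filter, 6488 without the treatment term and 2985 to 8017 without a treatment. Between replicates 3 and 2, the 29 histone genes became 7 with the 75th percentile, 18 without a filter and 3 to 17 without a treatment, and their median of -0.33 became -0.25 with the 75th percentile and -0.19 with normexp and quantile normalization. Probes called numbered 8379, and 4423 without a filter, 4494 without the treatment term and 961 to 5683 without a treatment. No gene called between replicates changed direction. Of the 3 genes called between replicates 2 and 1, 0 passed the threshold under all 13 alternatives, and 8 of the 19 and 3 of the 29 did. Leaving out arrays or the filter changes the number of arrays or probes tested, and the cause of the other changes was not tested.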
